A study of Mus musculus with 36 samples.

Results

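The surface markers of the stem and progenitor gates are 10 of the 38887 genes of the deposited count table. They are *Slamf1*, *Cd48*, *Cd34*, *Kit*, *Ly6a*, *Procr*, *Esam*, *Ly9*, *Flt3* and *Cd27*, which were chosen by name because their proteins define or refine the gates used to sort bone marrow (BM) stem and progenitor cells, and each was matched to its Ensembl identifier by symbol. All 10 passed the filter on low counts in each model. Their RNA was described over all 36 libraries by cell type, infused agent and *Il27ra* genotype, as a check of the sort.

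Hematopoietic stem cells of the mouse are found among BM cells that lack lineage markers and carry Sca-1 and c-Kit (LSK cells). Within LSK cells, the SLAM receptors CD150 and CD48 separate long-term stem cells, which carry CD150 and lack CD48, from progenitors with the opposite pattern, which have begun to take up lymphoid and myeloid programs. Stem cells of adult mice are also known for EPCR and ESAM on their surface and for little CD34 and FLT3, which appear as the cells leave the long-term compartment.

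For each sample, 5000 LSK cells were sorted by FACS, either as long-term hematopoietic stem cells (LT-HSC), positive for CD150 and negative for CD48, or as HPC-1 with the reverse pattern, a gate that the labels name short-term stem cells. All mice lacked apolipoprotein E, were fed a Western diet (WD) and had been infused with PBS or angiotensin II (Ang II) for 2 weeks, and they differed in *Il27ra*, which encodes a chain of the receptor for IL-27. Total RNA was sequenced with a stranded kit for low input, and the values are counts per gene. The labels give no age, sex or batch.

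PBS-infused mice gave LT-HSC libraries from *Apoe*-/- (1), *Apoe*-/-*Il27ra*+/- (3) and *Apoe*-/-*Il27ra*-/- (3) mice and HPC-1 libraries from the same genotypes (2, 3 and 3). Ang II-infused mice gave LT-HSC libraries from *Apoe*-/- (2), *Apoe*-/-*Il27ra*+/- (4) and *Apoe*-/-*Il27ra*-/- (4) mice and HPC-1 libraries from the same genotypes (3, 4 and 4). The 17 LT-HSC libraries held 1980283 to 6861078 counts (median 2560838) and the 19 HPC-1 libraries 2272026 to 6318379 (median 3254832). Values are CPM, counts scaled to a common library total, with library sizes adjusted by TMM. A library's floor was set at 3 counts, which corresponded to 0.401 to 1.49 CPM and covers counting error only.

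The genotype labels were checked with *Il27ra* itself. After Ang II, LT-HSC libraries held 42.7 and 51.6 CPM of it in *Apoe*-/- mice, and *Apoe*-/-*Il27ra*+/- mice had 25.2, 27, 30.1 and 33.0 CPM. The 4 *Apoe*-/-*Il27ra*-/- libraries held 11.5, 16.2, 16.2 and 19.4 CPM. These 3 groups did not overlap and followed the number of intact alleles. The log2 difference of *Apoe*-/-*Il27ra*-/- from *Apoe*-/- was −1.56 (SE 0.32, adjusted p = 0.0195 in the edgeR quasi-likelihood (QL) test, adjusted after Benjamini and Hochberg). The step from *Apoe*-/- to *Apoe*-/-*Il27ra*+/- (−0.7, adjusted p = 0.296) and that from *Apoe*-/-*Il27ra*+/- to *Apoe*-/-*Il27ra*-/- (−0.85, adjusted p = 1.0) did not pass by themselves, nor did the latter after PBS (−1.48, adjusted p = 0.982). After PBS, LT-HSC libraries of *Apoe*-/-*Il27ra*+/- mice held 23.4, 25.7 and 42.6 CPM, and those of *Apoe*-/-*Il27ra*-/- mice had 7.01, 9.33 and 16.5 CPM. The 7.01 CPM, which enters the difference of −1.48, came from replicate 2, whose gate markers lay with HPC-1, as described below. The 1 *Apoe*-/- library held 17.1 CPM, below the heterozygous ones and within the 11.5 to 19.4 CPM of *Apoe*-/-*Il27ra*-/- libraries after Ang II. *Il27ra* thus did not bear out the label of this library. Its *Agr2* level, given below, lay with that genotype. That pattern was read from the same libraries, so it does not check the number of intact alleles. HPC-1 held less *Il27ra* (4.64 to 16.6 CPM, median 9.07). There the genotypes overlapped, so the labels of HPC-1 libraries, and of that replicate 2, could not be checked this way.

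The ratio of *Slamf1* to *Cd48*, the genes of CD150 and CD48, reads the gate within each library. On the log2 scale it lay between −7.22 and −2.77 (median −4.63) in the 19 HPC-1 libraries and between −4.44 and 6.76 (median 5.25) in the 17 LT-HSC libraries. No HPC-1 library had a ratio above 0, and 16 of the 17 LT-HSC libraries did. The exception was the library labelled PBS *Apoe*-/-*Il27ra*-/- LT-HSC replicate 2, which had 16 counts of *Slamf1* and 424 of *Cd48*, a ratio of −4.44 within the range of HPC-1. Ang II *Apoe*-/-*Il27ra*-/- LT-HSC replicate 2 was next, with 48 counts of *Slamf1*, 19 of *Cd48* and a ratio of 1.28, and the other 15 lay between 3.24 and 6.76. The ratio was formed with a prior count of 2, so that in the 6 LT-HSC libraries with 0 counts of *Cd48* (5.35 to 6.76) its size depends on that choice and would be smaller at the floor of 3 counts. The markers of the first library thus went against its label.

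**Figure D1:**
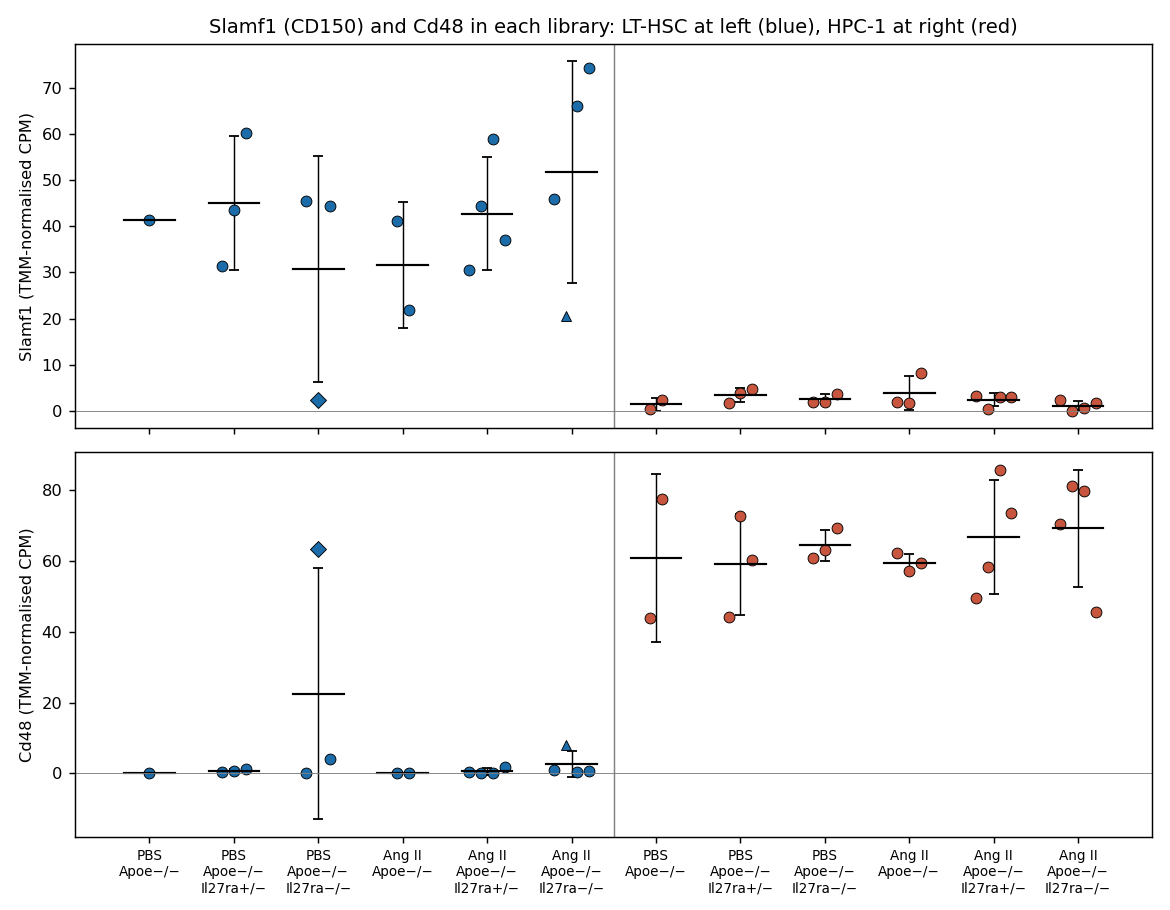
Level of *Slamf1* (upper panel) and *Cd48* (lower panel) on vertical axes in CPM for the 12 groups on the horizontal axis, LT-HSC at left and HPC-1 at right, with 1 point per library and lines at the mean with SD. The diamond, PBS *Apoe*-/-*Il27ra*-/- LT-HSC replicate 2, is low for *Slamf1* and as high as HPC-1 for *Cd48*, and the triangle is Ang II *Apoe*-/-*Il27ra*-/- LT-HSC replicate 2.

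These 2 libraries also stood apart over the other genes. On a scale built from 6765 genes that differed between the cell types, members left out, on which the mean of HPC-1 is set at 0 and the mean of the other 15 LT-HSC libraries at 1, PBS *Apoe*-/-*Il27ra*-/- LT-HSC replicate 2 was at 0.12 and Ang II *Apoe*-/-*Il27ra*-/- LT-HSC replicate 2 at 0.53. HPC-1 libraries ranged from −0.2 to 0.14 and the other 15 LT-HSC libraries from 0.85 to 1.14, a separation that the construction of the scale favors. The genes were chosen in a fit without these 2 libraries, which were known from earlier results to stand apart. Their place on the scale is thus a description and no test. All results include them unless stated, and several are also given without them.

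Other-lineage RNA was not confined to these 2 libraries, and it differed between them. The 12 neutrophil and monocyte genes summed to 4131 CPM in the PBS library, most abundantly *Mpo* (3559 CPM), which HPC-1 also expressed at 2207 to 6048 CPM. In the Ang II library they summed to 9782 CPM, where *S100a9* (2157 CPM), *Ngp* (2090 CPM) and *Ltf* (1576 CPM), genes of late neutrophils, were among the 4 most abundant, with *Lyz2* at 1636 CPM, and the first 3 named were at most at 83.0, 58.3 and 44.1 CPM in HPC-1. PBS *Apoe*-/-*Il27ra*-/- LT-HSC replicate 3 held 1694 CPM, with *Ngp* as its most abundant gene, and the remaining 14 LT-HSC libraries 110 to 230 CPM. The Ang II library also held 2507 CPM of the 12 erythroid genes, led by *Hbb-bs* (703 CPM), where the median LT-HSC library held 216 CPM, and 365 CPM of the 8 genes of the lineage cocktail that the sort is meant to remove, led by *Itgam* (310 CPM), where the median was 12.7 CPM. In the same library *Cd3e* and *Cd8a* of that cocktail were at 1.28 and 1.71 CPM, and *Ly6g*, which marks neutrophils, at 6.83 CPM. PBS *Apoe*-/-*Il27ra*-/- LT-HSC replicate 3, which had LT-HSC markers, held 2132 CPM of the erythroid genes, also led by *Hbb-bs* (761 CPM, the highest of LT-HSC), and 87.3 CPM of the lineage cocktail genes. PBS *Apoe*-/-*Il27ra*+/- LT-HSC replicate 3 held 745 CPM of the erythroid genes. The part of these transcripts in any result was not tested. In bulk RNA, fewer cells of a type and less RNA per cell cannot be told apart.

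**Figure D2:**
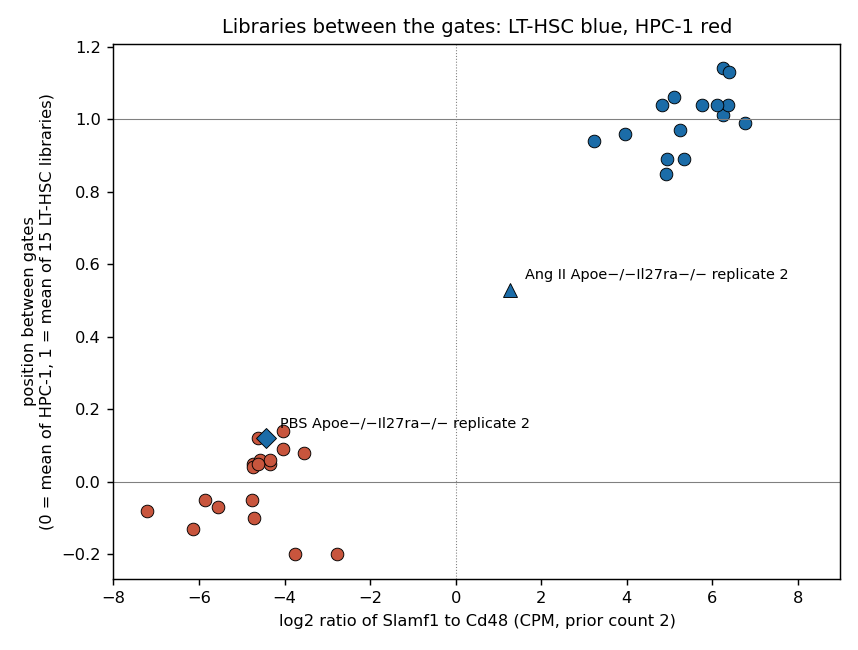
Position of each library between the gates (vertical axis, no unit, HPC-1 mean at 0 and mean of 15 LT-HSC libraries at 1) against its log2 ratio of *Slamf1* to *Cd48* (horizontal axis), with 1 point per library, LT-HSC in blue and HPC-1 in red. The diamond (PBS *Apoe*-/-*Il27ra*-/- LT-HSC replicate 2) lies among HPC-1 and the triangle (Ang II *Apoe*-/-*Il27ra*-/- LT-HSC replicate 2) between the cell types.

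The first question was whether the RNA of the gate markers followed the proteins used to sort. Of the members that LT-HSC are known to carry, *Slamf1*, which encodes the SLAM receptor CD150, ranged from 2.39 to 74.4 CPM (median 43.6) in LT-HSC and from 0 to 8.22 CPM (median 1.91) in HPC-1. The lowest LT-HSC library was the one labelled PBS *Apoe*-/-*Il27ra*-/- replicate 2. Without it, LT-HSC began at 20.5 CPM and did not overlap HPC-1. Averaged over the 6 conditions, the log2 difference of LT-HSC from HPC-1 was 4.11 (SE 0.36, adjusted p = 9.5e-10 in the edgeR QL test, adjusted after Benjamini and Hochberg), or 17.2-fold, and 4.2 without that library. Leaving it out gave 0.4 for *Kit*, 1.78 for *Ly6a* and −0.95 for *Cd27*, members described below.

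*Procr*, the gene of the endothelial protein C receptor (EPCR), ranged from 5.22 to 70.1 CPM (median 38.4) in LT-HSC and from 0 to 10.2 CPM (median 4.55) in HPC-1. *Esam*, whose product is an adhesion molecule of endothelium and stem cells, ranged from 7.61 to 96.4 CPM (median 68.1) in LT-HSC and from 1.3 to 13.6 CPM (median 7.65) in HPC-1. For both genes the overlap again came from the library labelled PBS *Apoe*-/-*Il27ra*-/- LT-HSC replicate 2, and the other 16 LT-HSC libraries lay above every HPC-1 library, from 23.7 CPM for *Procr* and from 34.1 CPM for *Esam*. The log2 differences were 3.22 (SE 0.28, 9.33-fold, adjusted p = 2.2e-10) for *Procr* and 3.18 (SE 0.22, 9.07-fold, adjusted p = 3.22e-12) for *Esam* by the same test.

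*Ly6a*, which encodes the Sca-1 that both gates require, was at 6.71 to 28.8 CPM (median 15.2) in LT-HSC and at 1.18 to 14.6 CPM (median 4.49) in HPC-1. The ranges overlapped, with 10 of the 17 LT-HSC libraries above the highest HPC-1 library and 12 of the 19 HPC-1 libraries below the lowest LT-HSC one. The log2 difference was 1.74 (SE 0.26, 3.33-fold, adjusted p = 9.01e-07 in the edgeR QL test). *Kit*, the receptor of stem cell factor and also required by both gates, was at 660 to 1197 CPM (median 875) in LT-HSC and at 538 to 1054 CPM (median 690) in HPC-1. These ranges overlapped over most of their span, and the log2 difference of 0.37 (SE 0.0961, 1.29-fold, adjusted p = 0.0021) was the smallest of the 10 members. *Kit* also varied little between libraries of a cell type, with a coefficient of variation of 18.2% in LT-HSC and 18.9% in HPC-1.

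On the progenitor side, *Cd48*, a GPI-anchored SLAM family protein that binds CD244, ranged from 0 to 63.2 CPM (median 0.484) in LT-HSC and from 43.9 to 85.6 CPM (median 62.0) in HPC-1. Of the 17 LT-HSC libraries 11 held 3 counts or fewer and 6 of these held 0, and the highest was again the library labelled PBS *Apoe*-/-*Il27ra*-/- replicate 2. Next came 8.11 CPM in Ang II *Apoe*-/-*Il27ra*-/- replicate 2 and 4.2 CPM in PBS *Apoe*-/-*Il27ra*-/- replicate 3, so that without the first library the cell types did not overlap. The fitted log2 difference was −6.73 (SE 0.78, adjusted p = 2.5e-07 in the edgeR QL test), but its size depends on groups at 0. It was −4.71 over *Apoe*-/-*Il27ra*+/- and *Apoe*-/-*Il27ra*-/- libraries alone and −7.23 without the library named. In *Apoe*-/- mice all LT-HSC libraries held 0 counts, and against the mean floor of 3 counts per library *Cd48* was at least 42.6-fold higher in HPC-1 after PBS and at least 40.6-fold higher after Ang II.

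*Cd34*, the gene of a sialomucin that appears as stem cells mature, ranged from 41.7 to 618 CPM (median 105) in LT-HSC and from 446 to 772 CPM (median 652) in HPC-1. *Flt3*, the receptor of FLT3 ligand and a marker of lymphoid-primed progenitors, ranged from 7.95 to 439 CPM (median 30.5) in LT-HSC and from 90.7 to 619 CPM (median 341) in HPC-1. *Ly9*, which encodes the SLAM family receptor CD229, ranged from 2.51 to 45.2 CPM (median 9.53) in LT-HSC and from 29.4 to 56.9 CPM (median 38.4) in HPC-1. The highest LT-HSC library of these 3 genes was the one labelled PBS *Apoe*-/-*Il27ra*-/- replicate 2, and without it LT-HSC ended at 193, 83.0 and 19.2 CPM, below HPC-1. The log2 differences were −2.3 (SE 0.27) for *Cd34*, −2.86 (SE 0.43) for *Flt3* and −1.78 (SE 0.22) for *Ly9*, with adjusted p-values of 2.01e-07, 7.44e-06 and 6.56e-08 in the edgeR QL test, and −2.49, −3.17 and −1.92 without that library.

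*Cd27*, a receptor of the TNF family carried by most early progenitors, was at 47.3 to 201 CPM (median 129) in LT-HSC and at 126 to 339 CPM (median 235) in HPC-1. The ranges overlapped, with 8 LT-HSC libraries below every HPC-1 library and 13 HPC-1 libraries above every LT-HSC library. The log2 difference was −0.91 (SE 0.21, adjusted p = 0.000952 in the edgeR QL test). It was −0.74 with the level of Y-linked genes as a covariate, on which *Cd27* had a slope, as described below.

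In all, 10 of the 10 members differed between the cell types, beside 6435 of 18013 genes tested (35.7%). Of the members, 5 were higher in LT-HSC, beside 16.5% of all genes, and 5 were lower, beside 19.2%. The median absolute log2 difference was 2.58 over the members and 0.48 over all genes tested. *Slamf1*, *Cd48*, *Kit* and *Ly6a* belong to the proteins sorted on, so for *Slamf1* and *Cd48* the direction follows from the gate. Libraries of at least 4000000 counts, used for an alternative below, were 7 LT-HSC and 4 HPC-1, with no HPC-1 group replicated and none from *Apoe*-/- mice. Fewer libraries and greater depth cannot be told apart in that alternative. With the library labelled PBS *Apoe*-/-*Il27ra*-/- LT-HSC replicate 2 left out, 6671 genes differed (37.2%), the 10 members among them. Among libraries of at least 4000000 counts, an alternative chosen after seeing the data, 2 members passed (*Kit*, adjusted p = 0.0382, and *Ly9*, adjusted p = 0.0432) and the others had an adjusted p of 0.0511 to 0.11 by the same test, and 8 passed when that library was left out of these as well.

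**Figure D3:**
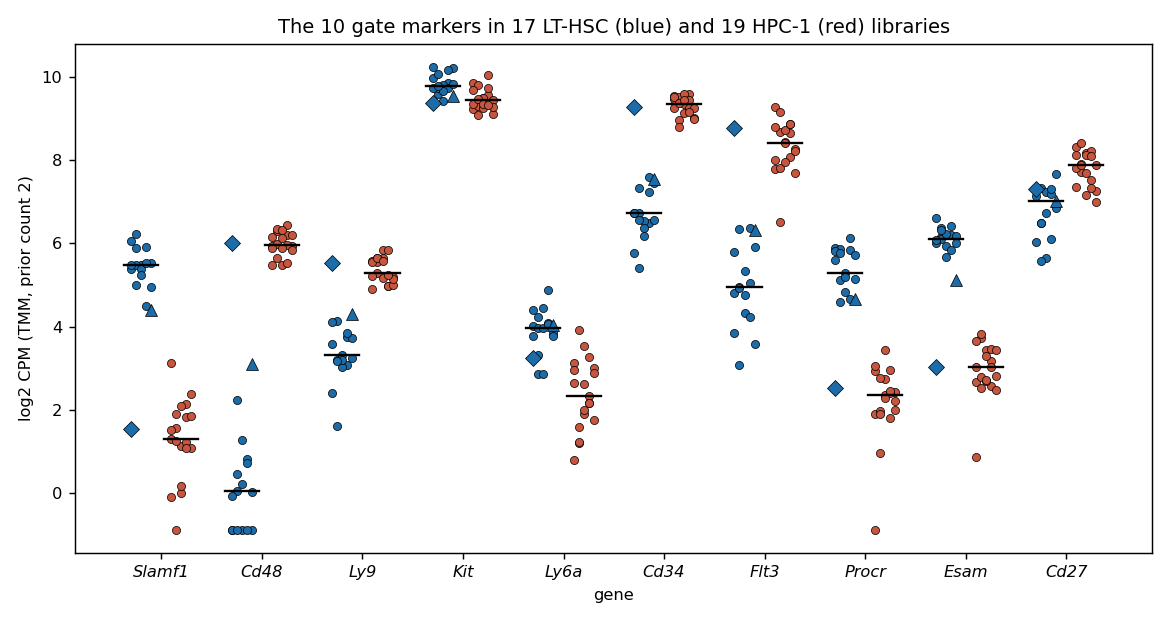
Level of the 10 members (horizontal axis) as log2 CPM with a prior count of 2 (vertical axis), with 1 point for each of 17 LT-HSC (blue) and 19 HPC-1 (red) libraries and a line at each median. The diamond, PBS *Apoe*-/-*Il27ra*-/- LT-HSC replicate 2, lies with HPC-1 for *Slamf1*, *Cd48*, *Ly9*, *Cd34*, *Flt3*, *Procr* and *Esam*.

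Levels of different genes were compared per kb of exon (GENCODE vM21, union of exons). In LT-HSC the order by median level was *Kit* (98.2 CPM per kb), *Cd27* (55.4), *Esam* (23.7), *Procr* (18.9), *Cd34* (14.4), *Ly6a* (12.6), *Slamf1* (7.09), *Flt3* (4.94), *Ly9* (2.88) and *Cd48* (0.407). In HPC-1 it was *Cd27* (101 CPM per kb), *Cd34* (89.5), *Kit* (77.4), *Flt3* (55.2), *Cd48* (52.1), *Ly9* (11.6), *Ly6a* (3.73), *Esam* (2.67), *Procr* (2.24) and *Slamf1* (0.311). *Cd48* and *Slamf1* thus stood at the bottom of the order in the gate that excludes their proteins. Neighbors in these orders mostly differed by less than the spread between libraries, as with *Esam* (2.65 to 33.6 CPM per kb) and *Procr* (2.57 to 34.5) in LT-HSC, and *Flt3* (14.7 to 100 CPM per kb) and *Cd48* (36.9 to 72.0) in HPC-1.

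The same comparison was made within each condition that had more than 1 LT-HSC library. After Ang II, 8 members differed in *Apoe*-/-*Il27ra*+/- mice, beside 14.9% of genes tested, 7 in *Apoe*-/-*Il27ra*-/- mice, beside 12.5%, and 6 in *Apoe*-/- mice, beside 10.4%. After PBS, 7 differed in *Apoe*-/-*Il27ra*+/- mice, beside 7.67%, and 3 in *Apoe*-/-*Il27ra*-/- mice, beside 0.883%. *Slamf1*, *Procr* and *Esam* passed in each of the 5 conditions, with log2 differences of 3.1 to 5.43, 2.31 to 3.64 and 2.31 to 3.85. *Cd48*, *Cd34* and *Flt3* passed in the 4 conditions other than PBS *Apoe*-/-*Il27ra*-/-. *Ly9* passed in 3, *Ly6a* in Ang II *Apoe*-/-*Il27ra*+/- mice (log2 difference 1.84, SE 0.52, adjusted p = 0.012 in the edgeR QL test), and *Kit* and *Cd27* in none of the 5. These counts depended on single libraries. In PBS *Apoe*-/-*Il27ra*+/- mice, 1382 genes were called on all libraries, 507 without LT-HSC replicate 3 of that group and at most 1669, with 6 to 8 members. In Ang II *Apoe*-/-*Il27ra*-/- mice the 2257 genes called became 1270 without HPC-1 replicate 3 and 2858 without LT-HSC replicate 2, with 7 members each time, and in Ang II *Apoe*-/-*Il27ra*+/- mice the range was 1867 to 2940 genes and 7 to 9 members.

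In PBS *Apoe*-/-*Il27ra*-/- mice, *Slamf1* was at 45.4, 2.39 and 44.5 CPM in LT-HSC replicates 1, 2 and 3 and at 1.91, 1.85 and 3.73 CPM in HPC-1. *Cd48* was at 0, 63.2 and 4.2 CPM in LT-HSC and at 60.6, 63.1 and 69.1 CPM in HPC-1, and *Flt3* was at 11.5, 439 and 81.2 CPM in LT-HSC and at 619, 406 and 341 CPM in HPC-1. Replicates 1 and 3 of LT-HSC thus lay on the LT-HSC side for all 3 genes and replicate 2 on the HPC-1 side. With replicate 2 left out, 1164 genes differed (6.48%) in place of 159, and 7 members in place of 3. The added members were *Cd48* (log2 difference −4.56), *Cd34* (−2.4), *Ly9* (−1.6) and *Flt3* (−3.25), with adjusted p-values of 0.00101, 0.00307, 0.027 and 0.0134 in the edgeR QL test. With replicate 1 of LT-HSC left out instead, no gene and no member passed. On all libraries, limma-voom with sample weights called 9 members and 2674 genes in this condition, and DESeq2 called 3 members and 447 genes. In Ang II *Apoe*-/- mice, *Ly9* passed without PBS *Apoe*-/-*Il27ra*-/- LT-HSC replicate 2 (log2 difference −1.58, adjusted p = 0.0291). Why it passed was not tested. There the counts fell from 1868 genes and 6 members to 1113 genes and 3 members when Ang II *Apoe*-/- LT-HSC replicate 1 was left out.

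The second question was whether Ang II moved the markers within a gate. Ang II was set against PBS in 5 combinations of cell type and genotype, leaving out *Apoe*-/- LT-HSC, with 1 PBS library. No member passed in any of these (0 of 50 tests), beside 0% of all genes tested in each in the edgeR QL test, with 150 to 806 genes at an unadjusted p under 0.05. DESeq2 called 7 genes, no member among them, and limma-voom called 0, while the QL test with no filter on low counts called *Cd48*, *Cd34* and *Flt3* in *Apoe*-/-*Il27ra*-/- LT-HSC. In HPC-1, group means of *Cd48* were 58.9 to 64.3 CPM after PBS and 59.4 to 69.1 CPM after Ang II, and those of *Cd34* were 552 to 678 CPM and 603 to 663 CPM. In LT-HSC of *Apoe*-/-*Il27ra*+/- mice, *Slamf1* was at 31.4, 43.6 and 60.2 CPM after PBS and at 30.5, 44.4, 59.0 and 37.0 CPM after Ang II, which spanned the same range. The 1 test with an unadjusted p under 0.05 was *Cd48* in *Apoe*-/-*Il27ra*-/- LT-HSC (log2 difference −3.21, SE 1.46, adjusted p = 1.0), which became 0.24 without PBS *Apoe*-/-*Il27ra*-/- LT-HSC replicate 2.

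The third question was whether *Il27ra* genotype moved the markers within a gate and agent. Over 10 comparisons no member passed in the edgeR QL test (0 of 100 tests, lowest adjusted p = 0.435), and 12 tests had an unadjusted p under 0.05. This depended on the model, since DESeq2 called 1 member and the QL test with no filter on low counts called 6 member tests, all of *Cd48*, *Cd34* or *Flt3*, such as *Flt3* in LT-HSC after PBS for *Apoe*-/-*Il27ra*-/- against *Apoe*-/-*Il27ra*+/- (log2 difference 2.69, adjusted p = 2.32e-20). The background was 1.69% of genes for *Apoe*-/-*Il27ra*-/- and 0.831% for *Apoe*-/-*Il27ra*+/- against *Apoe*-/- in LT-HSC after Ang II, 0.0152% for *Apoe*-/-*Il27ra*-/- against *Apoe*-/- in HPC-1 after PBS and 0% in the other 7, which had 151 to 975 genes at an unadjusted p under 0.05. With 1 library left out, the 277 and 136 genes behind the first 2 shares ranged from 98 to 627 and from 53 to 565. In LT-HSC after PBS, *Cd48* (log2 difference 4.7), *Flt3* (2.67), *Cd34* (1.69) and *Ly9* (1.43) were higher in *Apoe*-/-*Il27ra*-/- than in *Apoe*-/-*Il27ra*+/- at unadjusted p-values of 0.0216 to 0.0399. These became 1.39, 0.75, 0.49 and 0.56 without the library labelled PBS *Apoe*-/-*Il27ra*-/- LT-HSC replicate 2.

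In these genotype comparisons, *Flt3* in HPC-1 was the member on which edgeR, with the filter on low counts, and DESeq2 differed. After PBS, *Apoe*-/- libraries held 90.7 and 219 CPM, *Apoe*-/-*Il27ra*+/- libraries 309, 348 and 399 CPM and *Apoe*-/-*Il27ra*-/- libraries 341, 406 and 619 CPM. After Ang II, the levels were 205, 256 and 268 CPM for *Apoe*-/-, 222, 296, 421 and 468 CPM for *Apoe*-/-*Il27ra*+/- and 247, 441, 464 and 572 CPM for *Apoe*-/-*Il27ra*-/-. The *Apoe*-/- libraries were lower than all others after PBS and overlapped them after Ang II. For *Apoe*-/-*Il27ra*-/- against *Apoe*-/- after PBS, the log2 difference was 1.55 (SE 0.4, adjusted p = 0.475) in the edgeR QL test. DESeq2 gave 1.57 (adjusted p = 0.00776) and called 25 genes in this comparison (0.189%). With no filter on low counts, the edgeR QL test also called *Flt3* here (log2 difference 1.58, adjusted p = 0.00728), beside 0.187% of genes. *Ly6a* was also lower in these 2 *Apoe*-/- libraries (1.18 and 1.74 CPM) than in *Apoe*-/-*Il27ra*+/- (5.62, 7.54 and 9.11 CPM) and *Apoe*-/-*Il27ra*-/- (2.46, 5.74 and 11.0 CPM), with unadjusted p-values of 0.0202 and 0.0323 that did not pass adjustment, and the level of 1.18 CPM was 3 counts.

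Whether the gates responded differently was tested by interaction terms. Neither the difference in Ang II effect between LT-HSC and HPC-1 nor that in the effect of *Apoe*-/-*Il27ra*-/- against *Apoe*-/-*Il27ra*+/- called any gene in the edgeR QL test (0% in both), with 511 and 802 genes at an unadjusted p under 0.05. DESeq2 called 0 and 8 genes, no member among them, and with no filter on low counts the QL test called *Cd48* in both terms and *Cd34* and *Flt3* in the second. Among members, *Cd48* was the 1 member with an unadjusted p under 0.05, in the genotype term (log2 difference 2.92, SE 1.02, adjusted p = 1.0), which became 1.36 without the library labelled PBS *Apoe*-/-*Il27ra*-/- LT-HSC replicate 2.

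The 12 groups were also ordered by mean level, with every library included. *Slamf1* was highest in Ang II *Apoe*-/-*Il27ra*-/- LT-HSC (51.7 ± 24.0 CPM, SD, n = 4), followed by PBS *Apoe*-/-*Il27ra*+/- (45.1 ± 14.4, n = 3), Ang II *Apoe*-/-*Il27ra*+/- (42.7 ± 12.2, n = 4), PBS *Apoe*-/- (41.3, n = 1), Ang II *Apoe*-/- (31.5 ± 13.7, n = 2) and PBS *Apoe*-/-*Il27ra*-/- LT-HSC (30.7 ± 24.6, n = 3). The 6 HPC-1 groups followed, from 3.87 ± 3.77 CPM (n = 3) in Ang II *Apoe*-/- to 1.12 ± 1.03 CPM (n = 4) in Ang II *Apoe*-/-*Il27ra*-/-. For each pair of neighbors in this order, the ranges of mean ± SD overlapped or 1 group held a single library. The place of PBS *Apoe*-/-*Il27ra*-/- LT-HSC, and its overlap with HPC-1, rest on replicate 2 (2.39 CPM, against 45.4 and 44.5 CPM in replicates 1 and 3). Without that library, LT-HSC began at 20.5 CPM of *Slamf1* and did not overlap HPC-1. *Cd48* went from 69.1 ± 16.5 CPM in Ang II *Apoe*-/-*Il27ra*-/- HPC-1 (n = 4) to 58.9 ± 14.3 CPM in PBS *Apoe*-/-*Il27ra*+/- HPC-1 (n = 3), then fell to 22.5 ± 35.4 CPM in PBS *Apoe*-/-*Il27ra*-/- LT-HSC (n = 3), and the other 5 LT-HSC groups had means of 0 to 2.61 CPM. For *Flt3* the cell types mixed in this order, with PBS *Apoe*-/-*Il27ra*-/- LT-HSC (177 ± 229 CPM, n = 3) above PBS *Apoe*-/- HPC-1 (155 ± 90.9 CPM, n = 2). This place, like the *Cd48* mean of 22.5 CPM, rests on replicate 2 of that LT-HSC group (439 CPM of *Flt3*, 63.2 CPM of *Cd48*), without which no LT-HSC library exceeded 83.0 CPM of *Flt3* or 8.11 CPM of *Cd48* and neither gene overlapped HPC-1. In HPC-1 the means of *Flt3* ran with genotype, at 455 and 431 CPM in *Apoe*-/-*Il27ra*-/-, at 352 CPM in both *Apoe*-/-*Il27ra*+/- groups and at 243 CPM (Ang II) and 155 CPM (PBS) in *Apoe*-/- mice. The ranges of mean ± SD were apart between neighbors PBS *Apoe*-/-*Il27ra*+/- and Ang II *Apoe*-/-, which also differ in agent. For these genotypes they overlapped after Ang II (352 ± 113 and 243 ± 33.5 CPM) and not after PBS (352 ± 45.4 and 155 ± 90.9 CPM). No *Apoe*-/- library had *Xist* above the Y-linked genes, as described below, and the part of sex was not tested. Sums of lineage lists in the same libraries were described and not tested. The B and T lymphoid list described below, led by *Dntt*, summed to 41.2 to 100 CPM in the 5 *Apoe*-/- HPC-1 libraries, to 67.2 to 276 CPM in *Apoe*-/-*Il27ra*+/- and to 144 to 509 CPM in *Apoe*-/-*Il27ra*-/- HPC-1. The neutrophil and monocyte list after PBS summed to 6219 and 7010 CPM in *Apoe*-/- HPC-1 and to 2528 to 5384 CPM in the other 6, but after Ang II the genotypes overlapped, at 4704 to 6523 CPM in *Apoe*-/-, 5668 to 7424 CPM in *Apoe*-/-*Il27ra*+/- and 3896 to 7315 CPM in *Apoe*-/-*Il27ra*-/- HPC-1. Whether *Flt3* differed apart from these lists was not tested.

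The spread within LT-HSC was described over the 15 libraries without those that stood apart. For *Cd48*, 11 of the 15 held 3 counts or fewer, so that its coefficient of variation was not compared. The highest was 29 counts in PBS *Apoe*-/-*Il27ra*-/- replicate 3. The coefficients of variation of the others were 66.4% for *Flt3*, 40.5% for *Cd27*, 40.3% for *Cd34*, 39.8% for *Ly9*, 36.8% for *Ly6a*, 32.0% for *Procr*, 30.6% for *Slamf1*, 16.7% for *Kit* and 16.5% for *Esam*, and differences between them were not tested. In Ang II *Apoe*-/-*Il27ra*+/- LT-HSC replicate 3, 4 members were at their lowest over all 36 libraries at once, namely *Cd34* at 41.7 CPM, *Flt3* at 7.95 CPM, *Ly9* at 2.51 CPM and *Cd27* at 47.3 CPM. The same library held 0 counts of *Cd48* and 59.0 CPM of *Slamf1*. Across these 15 libraries, which share the gate and differ in agent, genotype and depth, Pearson's r of *Slamf1* was 0.59 with *Procr*, 0.38 with *Esam*, 0.17 with *Cd48*, −0.04 with *Kit*, −0.2 with *Flt3*, −0.22 with *Ly6a*, −0.48 with *Ly9*, −0.54 with *Cd34* and −0.62 with *Cd27*. That of *Cd48*, mostly at or near 0 counts, was 0.6 with *Flt3* and −0.39 to 0.29 with the other 7. With all 17 LT-HSC libraries, r of *Slamf1* with *Cd48* was −0.75, and the value of 0.17 without the 2 that stood apart rests mostly on counts of *Cd48* at the floor, so no relation of these genes within the gate can be read from it.

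The genes whose log2 CPM was most like that of *Slamf1* over the 36 libraries, among 9819 genes, were *Nbea* (r = 0.954), *Ctnnal1* (0.95), *Med12l* (0.943), *Aldh1a1* (0.942) and *Vwf* (0.941). Among those most like *Cd48* were *Ctsg* (r = 0.978), *Ccl9* (0.976), *Atp8b4* (0.974) and *Rab44* (0.974). These values reflect above all the separation of the cell types. Within the 17 LT-HSC libraries r was 0.88 to 0.95 for the former and 0.88 to 0.91 for the latter, but this range includes the library labelled PBS *Apoe*-/-*Il27ra*-/- LT-HSC replicate 2, and within the 19 HPC-1 libraries, where *Slamf1* was low and *Cd48* varied little, it was 0.24 to 0.66 and 0.06 to 0.25.

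The gene lists that follow are to be read beside the 35.7% of all genes called between the cell types, 16.5% higher and 19.2% lower in LT-HSC, and were not tested as sets. Where a median lies near 0 CPM, the fitted size depends on the model.

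Other genes of the SLAM family, whose receptors signal through small SH2 adaptors and the kinase FYN, behaved differently from one another. Of 10 listed genes 9 were in the table and 6 were tested between the cell types, of which 2 were higher in LT-HSC, 1 was lower and 3 did not pass, with a median log2 difference of 0.34 beside −0.01 over all genes tested. *Cd244a*, the gene of the CD48 receptor CD244, was at 6.24 CPM in the median LT-HSC library and at 64.2 CPM in the median HPC-1 library, and so was lower in LT-HSC together with its ligand *Cd48* (log2 difference −3.27, SE 0.56, adjusted p = 4.08e-05 in the edgeR QL test). *Cd84*, the most abundant of the list, was higher in LT-HSC with a median of 137 CPM against 81.0 CPM (log2 difference 0.65, SE 0.11), as was *Fyn* with 89.8 CPM against 59.4 CPM (0.63, SE 0.09).

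Of 19 further surface genes of stem cells, 17 were higher in LT-HSC, 1 was lower and 1 did not pass, with a median log2 difference of 1.74. Among them were *Neo1* (log2 difference 5.41, SE 0.48), the gene of neogenin, from a median of 0.395 CPM in HPC-1 to 21.3 CPM in LT-HSC, and *Cd38* (3.57, SE 0.47), from 0.878 to 8.61 CPM. *Thy1*, the 1 gene lower in LT-HSC, was at a median of 2.94 CPM there and 7.93 CPM in HPC-1. The most abundant was *Adgrg1*, at 1787 and 1060 CPM. The list summed to 1985 CPM in the library labelled PBS *Apoe*-/-*Il27ra*-/- LT-HSC replicate 2, within the 1183 to 2052 CPM of HPC-1, and to 2596 CPM in Ang II *Apoe*-/-*Il27ra*-/- LT-HSC replicate 2, where the median LT-HSC library held 3857 CPM.

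Of 16 surface genes of progenitors, 15 were tested, of which 13 were lower in LT-HSC, 0 were higher and 2 did not pass, with a median log2 difference of −2.51. *Ly6c2*, a myeloid Ly6 protein, was at a median of 0.209 CPM in LT-HSC and 16.5 CPM in HPC-1 (log2 difference −4.77, SE 1.19), and *Fcgr3*, the gene of CD16, at 0.616 and 12.9 CPM (−4.12, SE 1.03). These fitted sizes depend on libraries near the floor.

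In the pathway downstream of the KIT and FLT3 receptors, 15 of 16 listed genes were tested, of which 4 were higher in LT-HSC, 5 were lower and 6 did not pass, with a median log2 difference of −0.09. *Socs2*, a feedback inhibitor of cytokine signaling, stood out, at a median of 18.2 CPM in LT-HSC and 0 CPM in HPC-1 (log2 difference 5.58, SE 0.48, adjusted p = 7.82e-11 in the edgeR QL test). The adaptor *Dok2* (log2 difference 1.0, SE 0.2) and *Sos1* (0.62, SE 0.08), an exchange factor for RAS, were higher as well. *Pik3r1*, the most abundant, was at 373 CPM in LT-HSC and 313 CPM in HPC-1. The summed level of the list was 1760 CPM in the median LT-HSC library and 1742 CPM in the median HPC-1 library.

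Lineage lists served to show what else the gates held. Of 12 neutrophil and monocyte genes, 5 were lower in LT-HSC, 0 were higher and 7 did not pass, with *Ctsg* (log2 difference −8.76, SE 1.2), *Mpo* (−7.47, SE 1.16) and *Elane* (−7.33, SE 1.24), genes of the primary granules, among those called, and median levels of *Mpo* of 4.7 and 4832 CPM. The LT-HSC medians of *Ctsg* and *Elane* were 0 and 0.134 CPM. Of 10 megakaryocyte genes, 9 were tested, of which 7 were higher in LT-HSC and 2 did not pass. Among them were *Pf4* (log2 difference 6.78, SE 0.51), *Vwf* (6.7, SE 0.48) and *Gp1bb* (4.51, SE 0.48, HPC-1 median 0), with *Vwf*, the most abundant, at a median of 442 CPM in LT-HSC and 3.77 CPM in HPC-1. The megakaryocyte list summed to 102 CPM in the library labelled PBS *Apoe*-/-*Il27ra*-/- LT-HSC replicate 2, to 994 CPM in the median LT-HSC library and to 74.7 to 169 CPM in HPC-1.

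Of 12 B and T lymphoid genes, 5 were tested, of which 3 were lower in LT-HSC and 2 did not pass, and *Dntt*, the terminal transferase of early lymphoid cells, was the most abundant at a median of 0.37 CPM in LT-HSC and 179 CPM in HPC-1 (log2 difference −7.57, SE 0.98). *Rag2* (log2 difference −2.98, SE 1.1) and *Rag1* (−2.43, SE 0.95) were lower too, at medians of 2.65 and 0.488 CPM in HPC-1 and 0 in LT-HSC. Of 12 mast cell and basophil genes, 8 were tested, of which 5 were lower, 1 was higher and 2 did not pass, with *Ms4a2* (log2 difference −5.4, SE 0.95), *Gzmb* (−4.93, SE 1.16) and *Hdc* (−4.69, SE 0.96) among those called and *Gata2*, which stem cells also express, as the most abundant and the 1 higher in LT-HSC. *Ms4a2* and *Gzmb* had a median of 0 in LT-HSC and of 2.31 and 0.784 CPM in HPC-1. Of 12 erythroid genes, 2 were higher (*Alas2*, log2 difference 2.0, SE 0.69, and *Gfi1b*, 1.5, SE 0.17), 2 were lower (among them *Ermap*, −2.16, SE 0.71) and 8 did not pass, so that the 4 called are about the share of all genes, and *Tfrc*, at 59.7 and 135 CPM, was the most abundant. Of the 8 genes of the lineage cocktail, 6 were tested, of which *Itgax* (log2 difference −3.13, SE 0.83) and *Itgam* (−2.55, SE 0.78) were lower in LT-HSC and 4 did not pass. Without the 2 libraries that stood apart, 3 erythroid genes and 1 neutrophil and monocyte gene were higher in LT-HSC and 3 lineage cocktail genes were lower.

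Of 29 genes of intestinal epithelium, 21 were tested, of which 3 were higher in LT-HSC, 0 were lower and 18 did not pass, with *Epcam* (log2 difference 2.17, SE 0.49), *Krt8* (1.82, SE 0.46) and *Krt18* (1.32, SE 0.14) as the 3. *Muc13* was the most abundant, at 433 and 432 CPM, and *Fabp1* held 0 counts in every library. Over all LT-HSC libraries *Muc13* ranged from 359 to 669 CPM and *Krt18* from 29.7 to 122 CPM. These 2 genes thus make up much of the summed level, and most others listed had a median of 0 CPM in LT-HSC. The list summed to 1073, 1075 and 1137 CPM in the 3 *Apoe*-/- LT-HSC libraries and to 460 to 707 CPM in the other 14. *Agr2*, a gene of secretory epithelium, was at 22.8 to 33.2 CPM in these 3 libraries and in HPC-1 at 31.1 CPM in Ang II *Apoe*-/- replicate 3 and at 3.29 to 6.67 CPM in the other 4 *Apoe*-/- libraries, so that all 8 of that genotype lay above the other 28 libraries, which held at most 1.85 CPM. The part of these transcripts in the comparisons with *Apoe*-/-, those of *Flt3* and *Ly6a* in HPC-1 included, was not tested.

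None of the 5 sex-linked genes differed between the cell types, but they divided the libraries. *Xist*, the most abundant of them, exceeded the summed Y-linked genes in 8 LT-HSC and 4 HPC-1 libraries (12 in all), and the 11 libraries of at least 4000000 counts (7 LT-HSC, 4 HPC-1) were all among these. The 12th, PBS *Apoe*-/-*Il27ra*+/- LT-HSC replicate 2, held 2560838 counts, and sex and depth, which differ in this 1 library, cannot be told apart. None of the 8 *Apoe*-/- libraries was among the 12. In HPC-1, *Cd27* was at 126 to 162 CPM in the 4 libraries of at least 4000000 counts and at 164 to 339 CPM in the 15 others, which did not overlap. In LT-HSC the ranges by depth overlapped, at 47.3 to 157 CPM in 7 libraries and 49.2 to 201 CPM in 10, and those by *Xist* were 47.3 to 157 CPM in 8 and 115 to 201 CPM in 9. With the Y-linked level as a covariate, *Cd27* rose by 0.13 on the log2 scale per log2 unit of Y-linked level (adjusted p = 3.16e-05 in the edgeR QL test) and *Kit* by 0.06 (adjusted p = 0.00311), beside 7.18% of genes tested, and the other 8 members did not pass. In separate models of each cell type, the slopes of *Cd27* were of similar size, 0.13 in HPC-1 (adjusted p = 0.000345, beside 4.05% of genes) and 0.14 in LT-HSC (adjusted p = 0.0772, beside 0.782%), and that of *Kit* was 0.06 in both (adjusted p = 0.0966 and 0.0998). A difference between the cell types in these slopes was not tested.

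The 3 SLAM family members lie close together on chromosome 1 of mm10, *Ly9* at 171588624 to 171607410 on the minus strand, *Cd48* at 171682009 to 171705258 and *Slamf1* at 171767127 to 171801184, both on the plus strand. The gap between *Ly9* and *Cd48* is 74.6 kb and that between *Cd48* and *Slamf1* 61.9 kb. *Ly9* and *Cd48*, the first pair, were lower in LT-HSC, and *Slamf1*, on the other side of *Cd48*, was higher. The remaining members lie on chromosomes 1 (*Cd34*), 2 (*Procr*), 5 (*Kit* and *Flt3*), 6 (*Cd27*), 9 (*Esam*) and 15 (*Ly6a*).

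The promoter windows of *Slamf1* and *Cd48* are shown because these neighbors carry the gate and move in opposite directions. They come from RefSeq on GRCm38.p6, where 7 of the 10 members matched, end before the annotated start and are 245 bases at chr1:171766882-171767126 and 250 bases at chr1:171681742-171681991, both on the plus strand. Capitals mark matches on either strand. The patterns searched were GATAA for the GATA factors, then GGAAG, which is the core that factors of the ETS family prefer, then TGTGGT, the core of the sites that RUNX factors prefer, and for the box of that name the letters TATAAA.
*Slamf1*: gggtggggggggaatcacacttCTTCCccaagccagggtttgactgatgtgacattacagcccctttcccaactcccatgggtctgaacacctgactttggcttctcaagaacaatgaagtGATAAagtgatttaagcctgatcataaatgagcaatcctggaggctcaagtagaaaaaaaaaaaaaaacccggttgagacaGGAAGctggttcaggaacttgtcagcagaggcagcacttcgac
*Cd48*: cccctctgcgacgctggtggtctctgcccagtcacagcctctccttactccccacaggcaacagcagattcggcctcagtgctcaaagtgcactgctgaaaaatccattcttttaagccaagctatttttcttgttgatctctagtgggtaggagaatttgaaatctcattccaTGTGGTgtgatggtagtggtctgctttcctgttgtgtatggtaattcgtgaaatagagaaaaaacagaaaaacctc
The *Slamf1* window held 1 match to the GATA pattern and 2 to the ETS pattern, the *Cd48* window held 1 to the RUNX pattern, and neither held the others. Among 32851 promoter windows, 22.6% held the GATA pattern, 64.1% the ETS pattern, 14% the RUNX pattern and 12.4% the TATA box. The matches are letters in a window and were tied to no factor.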

How the data were processed

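The authors deposited a table of counts per gene. The deposited values are expected counts of RSEM 1.2.31 on mm10, all whole numbers in the file, and the processing notes also name Bowtie2 and DESeq2. Of 38887 identifiers 37570 had a symbol, with 99.63% of counts. The 10 members and the gene lists were chosen by name, with earlier results of these data known, and genes are named in the text if they are members, checks or the largest or most abundant of a list. Counts were scaled by TMM, filtered by filterByExpr and tested with edgeR 4.0.16 (robust quasi-likelihood, 12 groups or 6 within a cell type), with Benjamini-Hochberg adjustment over all genes tested and a threshold of 0.05. DESeq2 1.42.0 and limma-voom with sample weights (limma 3.58.1) served as alternatives. The pipeline was tested on simulated data.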

Additional observations from a re-analysis of the deposited data

Results flagged for a closer look

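Of 48 groups examined for a library far from its fellows, 4 were picked out, each among 4 libraries. Chance alone picks about 1 in 20 groups if they are independent. These groups share libraries, and 2 of the 4 picks were the same library, so their number was not set against chance. The library labelled PBS *Apoe*-/-*Il27ra*-/- LT-HSC replicate 2, in a group of 3, was not among those picked out. *Slamf1* was at 0.455 CPM in Ang II *Apoe*-/-*Il27ra*+/- HPC-1 replicate 2, against 3.04 to 3.18 CPM in the other 3. The level of 0.455 CPM was 1 count, under that library's floor of 1.37 CPM. *Cd48* was at 8.11 CPM in Ang II *Apoe*-/-*Il27ra*-/- LT-HSC replicate 2, against 0.41 to 1.1 CPM. *Procr* was at 55.5 CPM in Ang II *Apoe*-/-*Il27ra*+/- LT-HSC replicate 2, against 33.9 to 36.2 CPM. The position between the gates was 0.53 in Ang II *Apoe*-/-*Il27ra*-/- LT-HSC replicate 2, against 1.04 in the other 3, on a scale whose genes were chosen without this library.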

How the results depend on the processing

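No member's log2 difference over all conditions changed sign, while *Cd48* for Ang II against PBS in *Apoe*-/-*Il27ra*-/- LT-HSC did (−3.21, and 0.24 without PBS replicate 2). Over all conditions, the comparison of LT-HSC with HPC-1 called 6058 to 6671 genes and 10 members with each library left out in turn, and 2258 to 7699 genes under the other settings. The lowest count came from libraries of at least 4000000 counts, with 2 members. There *Slamf1* was 3.93 (adjusted p = 0.0812), *Cd48* −4.70 (0.0671), *Cd34* −2.25 (0.0536), *Ly6a* 1.03 (0.0511), *Procr* 3.14 (0.0687), *Esam* 2.92 (0.0723), *Flt3* −2.91 (0.0916) and *Cd27* −0.80 (0.11) in the edgeR QL test. Without the library labelled PBS *Apoe*-/-*Il27ra*-/- LT-HSC replicate 2 these gave 5605 genes and 8 members, with *Flt3* at −3.33 (0.0851) and *Cd27* at −0.91 (0.101).

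With each library left out, the log2 difference over all conditions ranged from 3.98 to 4.41 for *Slamf1*, −7.23 to −5.92 for *Cd48*, −2.49 to −2.22 for *Cd34*, 0.31 to 0.46 for *Kit*, 1.34 to 1.88 for *Ly6a*, 3.10 to 3.48 for *Procr*, 3.00 to 3.30 for *Esam*, −1.92 to −1.67 for *Ly9*, −3.17 to −2.73 for *Flt3* and −1.02 to −0.81 for *Cd27*. The 5 single conditions summed to 8342 genes and 31 members, and to 7069 to 10278 genes and 28 to 36 members with each library left out.

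For Ang II against PBS, which called 0 genes, DESeq2 called 7 genes, and without the filter on low counts there were 182 genes and 3 members. With each library left out 0 to 1 genes and 0 to 0 members were called, with 1 gene when PBS *Apoe*-/-*Il27ra*-/- HPC-1 replicate 1 or Ang II *Apoe*-/-*Il27ra*-/- HPC-1 replicate 4 was left out. For genotypes, which called 415 genes, DESeq2 called 1264 genes and 1 member, limma-voom 218, no filter 1909 genes and 6 members, the Y-linked covariate 265, and leaving out the 2 libraries that stood apart 1072. With each library left out 187 to 1194 genes and 0 to 0 members were called, the moved counts being 187, 212, 218, 242, 248, 264, 275 and 1194. For the Ang II interaction, no filter gave 113 genes and 1 member, and leaving out libraries 0 to 4 genes and 0 to 0 members. For the genotype interaction, DESeq2 called 8 genes, no filter 159 genes and 3 members, and leaving out libraries 0 to 0 of both. All members called without the filter were *Cd48*, *Cd34* and *Flt3*.

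With the replicate block, where libraries of 1 replicate number share a block, 6059 genes and 10 members were called over all conditions, 29 members in the single conditions, 8 genes for Ang II and 145 for genotypes. The numbers were not taken to pair LT-HSC with HPC-1, since 7 of 16 correlations between libraries of the same number were at most 0.1 (range −0.262 to 0.447) and in 4 of 17 such pairs *Xist* exceeded the Y-linked genes in 1 library and not in the other.

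The limits are as follows. PBS *Apoe*-/- LT-HSC has 1 library, and Ang II was not tested there. The groups hold at most 4 libraries, and among libraries of at least 4000000 counts no HPC-1 group is replicated. Sex follows depth, so neither can be adjusted for alone. The values are whole numbers from RSEM and hold no transcript detail. RNA is not surface protein, and the sort itself is not in the files. The label of PBS *Apoe*-/-*Il27ra*-/- LT-HSC replicate 2 could not be checked beyond its RNA, and other-lineage RNA was described and not removed.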
